A study of Mus musculus with 4 samples.

Results

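The 9 genes described here encode the enzymes that write DNA methylation (Dnmt1, Dnmt3a and Dnmt3b), oxidise it (Tet1, Tet2 and Tet3), excise the oxidised base (Tdg) and make the 2-oxoglutarate that the oxidising enzymes consume (Idh1 and Idh2). They were picked by gene name, all 9 were found among the 46517 genes of the deposited expression table, and all 9 were among the 14755 genes that passed the filter on low values. The samples were LSK cells from C57BL/6 mice aged 8 to 10 weeks. LSK cells are the marrow fraction that lacks lineage antigens and carries Sca-1 and c-Kit, and it contains the blood stem cells and early progenitors. The groups were Setd2D/D (Setd2 knockout, 2 libraries) and Setd2f/f (wild-type Setd2, 2 libraries). The exons removed, the Cre behind the deletion, its presence or absence in the Setd2f/f mice and the number of mice pooled per library are not given in the labels. All p-values therefore rest on differences between libraries of 1 genotype that may be technical.

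DNA methylation is placed on cytosines that precede a guanine. Dnmt1 copies the mark onto the new strand after replication, while Dnmt3a and Dnmt3b place it on unmethylated sites and carry a PWWP domain that binds methylated lysine 36 of histone H3, the residue that Setd2 trimethylates in transcribed gene bodies. Tet enzymes oxidise the methyl group step by step with iron and 2-oxoglutarate, and Tdg removes the later oxidation products so that base excision repair can restore cytosine. DNMT3A, TET2, IDH1 and IDH2 are among the genes mutated in human clonal haematopoiesis or myeloid leukaemia, and loss of Dnmt3a or Tet2 in mice expands the stem cell pool. By its title the series is about Setd2, elongation by RNA polymerase II and the quiescence of blood stem cells. Here the question is whether the levels of this machinery differ between the genotypes.

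The libraries were compared by their TPM values (transcript shares corrected for length and scaled to the same total in every library). Setd2 was at 43.4 and 49.5 TPM in Setd2D/D and at 78.9 and 68.0 TPM in Setd2f/f, with an adjusted p of 0.329 by limma and an FDR of 5.84e-06 in the authors' deposited table. The value covers the whole gene, so that transcripts lacking only a deleted part would still be counted. Kit, which encodes c-Kit, was at 301 and 285 TPM in Setd2D/D and at 224 and 249 TPM in Setd2f/f. Ly6a, which encodes Sca-1, was at 46.5 and 80.6 TPM in Setd2D/D and at 127.5 and 124 TPM in Setd2f/f. The spacing of the lowest TPM values gave an estimated 24.2 and 36.4 M counted reads for Setd2D/D and 32.4 and 39.0 M for Setd2f/f. Setd2D/D replicate 1, the shallowest, also stood apart across all tested genes, with r between 0.910 and 0.913 to the other 3 libraries, while those 3 had r between 0.934 and 0.959 among themselves. At the depth of the shallowest library, the CPM of each of the 9 genes, averaged over libraries, corresponded to an estimated 908 or more reads.

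Among the 9 genes the starts of Tet1 and Tet2 are shown, since their ratios of mean TPM lay farthest from 1, on opposite sides. Each line gives the 250 bases before the gene start that RefSeq annotates on GRCm38.p6, on the minus strand, with every CG, the dinucleotide that these enzymes act on, in capitals. The Tet1 window is chr10:62887325-62887574 and the Tet2 window is chr3:133544391-133544640.
Tet1: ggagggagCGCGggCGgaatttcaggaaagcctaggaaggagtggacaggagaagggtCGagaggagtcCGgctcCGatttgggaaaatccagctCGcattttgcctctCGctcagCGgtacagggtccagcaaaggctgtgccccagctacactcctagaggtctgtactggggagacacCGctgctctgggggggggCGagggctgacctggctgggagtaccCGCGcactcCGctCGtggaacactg
Tet2: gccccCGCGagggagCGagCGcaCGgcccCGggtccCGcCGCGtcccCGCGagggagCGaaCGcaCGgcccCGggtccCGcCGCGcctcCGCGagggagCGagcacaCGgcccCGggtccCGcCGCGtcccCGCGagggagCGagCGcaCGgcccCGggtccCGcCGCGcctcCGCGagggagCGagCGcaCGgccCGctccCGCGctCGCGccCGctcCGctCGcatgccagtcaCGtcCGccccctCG

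The Tet2 window holds 51 CG in a repeat whose unit is 42 bases long, with 77.9% of bases equal to the base 1 unit further on, and 0.067% of the 32851 promoter windows in the RefSeq table hold as many. The Tet1 window holds 15 CG, a number that 27.3% of windows reach. RefSeq places this Tet1 start 21672 bases inside the gene as GENCODE M21 draws it, and 1 GENCODE transcript contains the 50 bases that follow it. Over all 9 genes the table has 14 windows with between 2 and 51 CG, against a median of 6 over all windows. These are counts of letters, and methylation itself was not measured.

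Among the 9 genes, levels set by TPM, which is per length, spanned more than an order of magnitude. Idh2, the mitochondrial isocitrate dehydrogenase, was highest at between 226 and 286 TPM over the 4 libraries. Dnmt1 followed at between 156 and 184 TPM, then Tdg at between 75.4 and 87.7 TPM. Dnmt3b, at between 45.9 and 71.1 TPM, and Dnmt3a, at between 54.9 and 64.4 TPM, overlapped. Idh1, the cytosolic enzyme, lay between 28.8 and 38.7 TPM, a range that held a single Tet value, that of Tet2 in Setd2D/D replicate 1. The Tet genes were lowest and overlapped in order, with Tet3 between 19.2 and 24.8 TPM, Tet2 between 10.3 and 29.2 TPM and Tet1 between 9.63 and 16.6 TPM.

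**Figure D1:**
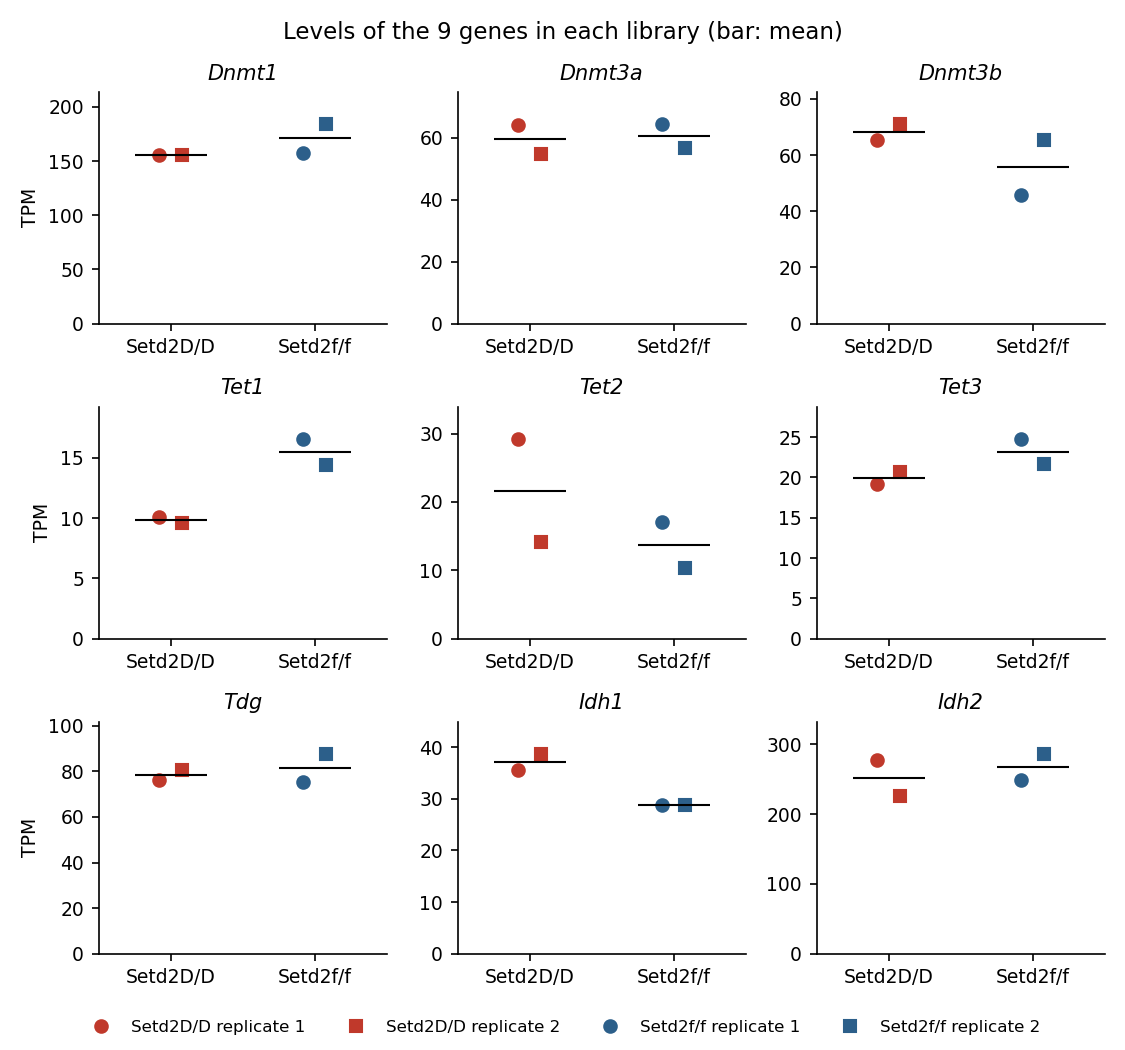
TPM of each of the 9 genes (vertical axes, each starting at 0) in the Setd2D/D libraries, in red on the left, and the Setd2f/f libraries, in blue on the right, with circles for replicate 1, squares for replicate 2 and a bar at the mean. Tet1 has both Setd2D/D values, 10.1 and 9.63 TPM, under both Setd2f/f values, 16.6 and 14.4 TPM, while Tet2 has its highest value, 29.2 TPM, in Setd2D/D replicate 1 and overlapping genotypes.

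Of the 9 genes, 0 passed limma at an adjusted p of 0.05 over all genes, at which 0.0678% of the 14755 tested genes passed (10 genes, and 0 once any 1 library was left out). Adjusted p-values by limma ran from 0.428 for Tet1 to 0.969 for Dnmt3a. Tet1 alone had an unadjusted p under 0.05, a level reached by 11.2% of tested genes. The authors' deposited table of the comparison, whose levels are in CPM and not divided by length, has 1 of the 9 past an FDR of 0.05, again Tet1. The share past that FDR there was 3.15% of 23955 genes in either direction and 1.64% in the lower one. With 2 libraries against 2 an exact permutation test of a single gene cannot go below 0.33. For 4 of the 9 genes the libraries of the genotypes did not overlap, with Dnmt1, Tet1 and Tet3 lower and Idh1 higher in Setd2D/D, but 44.3% of all tested genes were separated in this way. The median log2 change of the 9 was -0.05, beside -0.06 over all tested genes.

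**Figure D2:**
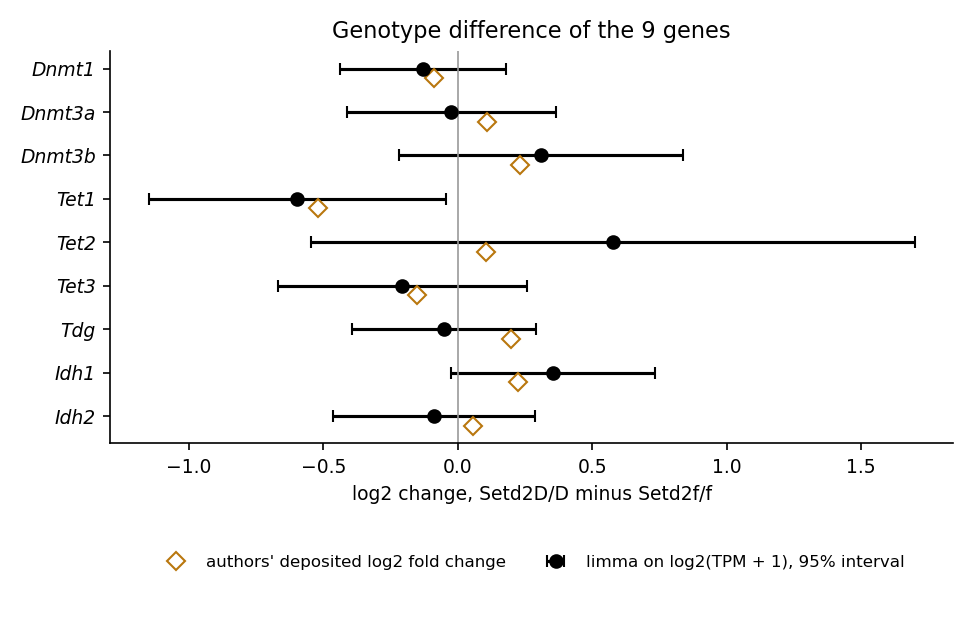
Log2 change of each gene, Setd2D/D minus Setd2f/f, on the horizontal axis, with filled circles and 95% intervals from limma on log2(TPM + 1) and open diamonds from the authors' deposited table. The interval of Tet1 alone leaves out 0, and the markers lie farthest apart for Tet2, where limma gives 0.58, while 0.10 stands in the authors' deposited table.

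All positions below are those of the whole gene in GENCODE M21 on GRCm38. Among the writers, the maintenance enzyme Dnmt1 (ENSMUSG00000004099, chr9:20907209-20959888, minus strand) was at 155.7 and 156.0 TPM in Setd2D/D and at 157.9 and 184.3 TPM in Setd2f/f. Setd2f/f replicate 2 was high and the other 3 lay within a few TPM of each other. By limma the log2 change was -0.13 (SE 0.12, 95% interval -0.44 to 0.18, adjusted p = 0.707), and the authors' deposited table gives -0.09.

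Dnmt3a, a de novo methyltransferase (ENSMUSG00000020661, chr12:3806007-3914443, plus strand), was at 64.2 and 54.9 TPM in Setd2D/D and at 64.4 and 56.6 TPM in Setd2f/f. In both genotypes replicate 1 was the higher, and the genotypes overlapped over most of their range. Its limma log2 change was -0.02 (SE 0.15, interval -0.41 to 0.36), while the authors' deposited table gives 0.11 with an FDR of 0.857. The sign turned positive after each rescaling of the libraries (up to 0.03). Dnmt3aos, antisense to Dnmt3a over 133 bases of exon, was listed at 0 in 3 of the 4 libraries and at 0.21 TPM in Setd2f/f replicate 1.

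Dnmt3b, the other de novo enzyme (ENSMUSG00000027478, chr2:153649450-153687730, plus strand), was at 65.3 and 71.1 TPM in Setd2D/D and at 45.9 and 65.4 TPM in Setd2f/f. Setd2f/f replicate 1 was low, and Setd2f/f replicate 2 lay just above Setd2D/D replicate 1. By limma its log2 change was 0.31 (SE 0.20, interval -0.22 to 0.84, adjusted p = 0.602). Leaving out Setd2f/f replicate 1 brought it to 0.06, and leaving out Setd2f/f replicate 2 brought it to 0.56. The authors' deposited table gives 0.23 with an FDR of 0.559, the lowest among the 8 genes that did not pass. Summed over the 3 writers, TPM was 285 and 282 in Setd2D/D and 268 and 306 in Setd2f/f, with a 2-sided exact permutation p of 1.0.

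Among the erasers, Tet1 (ENSMUSG00000047146, chr10:62804570-62908996, minus strand) was at 10.1 and 9.63 TPM in Setd2D/D and at 16.6 and 14.4 TPM in Setd2f/f. Both Setd2D/D libraries lay below both Setd2f/f libraries, and the ratio of mean TPM was 0.638. The limma log2 change was -0.60 (SE 0.21, interval -1.15 to -0.05, unadjusted p = 0.0390, adjusted p = 0.428). In the authors' deposited table the log2 change is -0.52 (FDR 0.00904). Leaving out any 1 library kept the limma log2 change between -0.69 and -0.50, where the library left alone in its genotype was assumed to vary like the other pair.

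Tet2, whose loss is common in myeloid disease in humans (ENSMUSG00000040943, chr3:133463679-133545139, minus strand), was at 29.2 and 14.1 TPM in Setd2D/D and at 17.1 and 10.3 TPM in Setd2f/f. Setd2D/D replicate 1 was high, and Setd2D/D replicate 2 lay between the Setd2f/f libraries. The Setd2D/D mean of 21.7 ± 10.7 TPM and the Setd2f/f mean of 13.7 ± 4.83 TPM (SD, n = 2 each) had a ratio of 1.58. The limma log2 change was 0.58 (SE 0.43, interval -0.55 to 1.70, adjusted p = 0.646), and the authors' deposited table gives 0.10 with an FDR of 0.885. With Setd2D/D replicate 1 left out it was 0.07, and with replicate 2 of that genotype left out it was 1.08. Dropping Setd2f/f replicate 1 gave 0.92 and dropping the other Setd2f/f library gave 0.23.

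Tet3, the third oxidising enzyme (ENSMUSG00000034832, chr6:83362373-83459084, minus strand), was at 19.2 and 20.7 TPM in Setd2D/D and at 24.8 and 21.6 TPM in Setd2f/f. The genotypes were apart by less than 1 TPM between their nearest libraries. On the limma scale the difference was -0.21 (SE 0.18, interval -0.67 to 0.26), beside -0.15 in the authors' deposited table. Summed over the 3 Tet genes, TPM was 58.6 and 44.4 in Setd2D/D and 58.5 and 46.3 in Setd2f/f (2-sided exact permutation p = 1.0).

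Within each library the make-up of the families was read as a share of their summed TPM, which multiplying a library by a constant cannot move. Quantile scaling does not multiply by a constant, and the shares were not read after it. Tet1 made up 17.3% and 21.7% of Tet TPM in Setd2D/D and 28.3% and 31.1% in Setd2f/f. Tet2 made up 49.9% and 31.7% in Setd2D/D and 29.3% and 22.2% in Setd2f/f. The ratio of Tet2 to Tet1 TPM was thus 2.88 and 1.46 in Setd2D/D and 1.03 and 0.715 in Setd2f/f, with the genotypes apart. In the TPM of single genes, 44.3% of all tested genes were apart in this way. These shares rest on TPM, and for Tet2 the log2 ratio of mean TPM was 0.66, against 0.10 in the authors' deposited table. Dnmt1 held 54.6% and 55.3% of Dnmt TPM in Setd2D/D and 58.9% and 60.2% in Setd2f/f, and Dnmt3b held 22.9% and 25.2% in Setd2D/D and 17.1% and 21.3% in Setd2f/f. The shares of Dnmt3a and of Tet3 overlapped between genotypes. These shares were not tested beyond their order, which 2 libraries against 2 cannot bring under an exact p of 0.33.

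**Figure D3:**
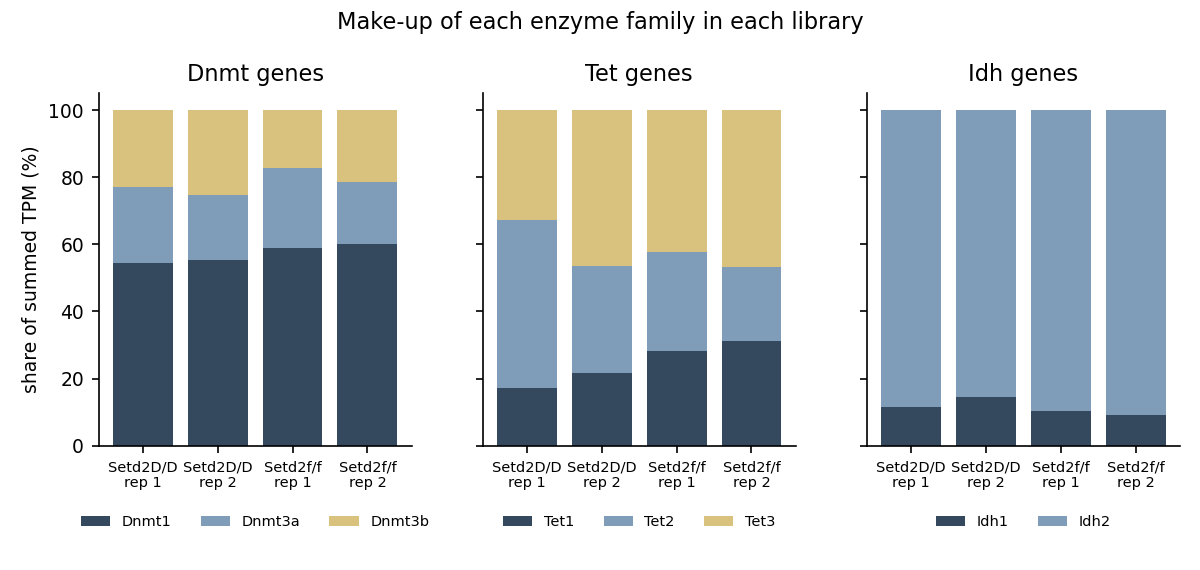
Share of summed TPM in percent (vertical axis, from 0) that each gene takes within the Dnmt, Tet and Idh families, one stacked bar per library, with the Setd2D/D libraries left of the Setd2f/f libraries. Tet1 takes 17.3% and 21.7% of Tet TPM in Setd2D/D and 28.3% and 31.1% in Setd2f/f.

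Tdg, the glycosylase that removes oxidised methylcytosine (ENSMUSG00000034674, chr10:82629828-82650799, plus strand), was at 76.2 and 80.6 TPM in Setd2D/D and at 75.4 and 87.7 TPM in Setd2f/f. Both Setd2D/D values lay between the Setd2f/f values. Its change by limma was -0.05 on the log2 scale (SE 0.13, interval -0.39 to 0.29), while the authors' deposited table gives 0.20 with an FDR of 0.688. Glt8d2 lies antisense to Tdg over 367 bases of exon and was at 0.80 and 0.67 TPM in Setd2D/D and at 1.79 and 1.27 TPM in Setd2f/f, and whether the counting used strand is not given in the labels. The pseudogene Tdg-ps, a copy that can share reads with it, was at 0.88 and 2.15 TPM in Setd2D/D and at 1.48 and 1.27 TPM in Setd2f/f.

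Idh1 (ENSMUSG00000025950, chr1:65158616-65186500, minus strand) was at 35.6 and 38.7 TPM in Setd2D/D and at 28.9 and 28.8 TPM in Setd2f/f. Both Setd2D/D libraries lay above both Setd2f/f libraries, which lay close together. By limma, Idh1 differed by 0.35 on the log2 scale (SE 0.15, interval -0.03 to 0.73, unadjusted p = 0.0616, adjusted p = 0.465). The authors' deposited table gives 0.22 with an FDR of 0.755.

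Idh2 (ENSMUSG00000030541, chr7:80094846-80115392, minus strand) was at 277 and 226 TPM in Setd2D/D and at 248 and 286 TPM in Setd2f/f, so that the genotypes overlapped and each held 1 of the 2 highest values. The limma log2 change was -0.09 (SE 0.14, interval -0.46 to 0.29), and the authors' deposited table gives 0.06 with an FDR of 0.921. Idh2 exceeded Idh1 7.79-fold and 5.85-fold in the Setd2D/D libraries and 8.60-fold and 9.94-fold in the Setd2f/f libraries.

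The 2 scales did not give the same difference for every gene. A change in the reads of a gene and a change in its TPM are equal, up to a constant, when the lengths of the transcripts assigned to it stay the same, and part when those lengths shift. In 563 tested protein-coding genes with a single annotated transcript, the authors' deposited log2 fold change exceeded the log2 ratio of mean TPM by 0.05, and by between 0.04 and 0.06 from the 5th to the 95th percentile. In Dnmt1 the excess was also 0.05 and in Tet3 0.07. In Tet2 the authors' deposited log2 change of 0.10 fell short of the TPM value of 0.66 by 0.55, and 2.09% of 14607 genes had a lower value. Less the constant, this corresponds to a mean length of Tet2 transcripts in Setd2D/D of 0.659 times that in Setd2f/f, taking the authors' deposited fold change as one of reads per gene. For the other 8 genes the same ratio ran from 0.876 for Idh1 to 1.15 for Tdg.

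The mean length of Tet2 transcripts implied by its reads per TPM was about 4346 bases, between the shortest (423 bases) and longest (9179 bases) of its 10 GENCODE transcripts. Tet3 stood at 9655 of at most 10904 bases and Tet1 at 8077 of at most 14369. Which transcripts differ cannot be read from tables of whole genes, and the parts of transcript assignment and of replicate spread in the Tet2 difference were not tested.

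**Figure D4:**
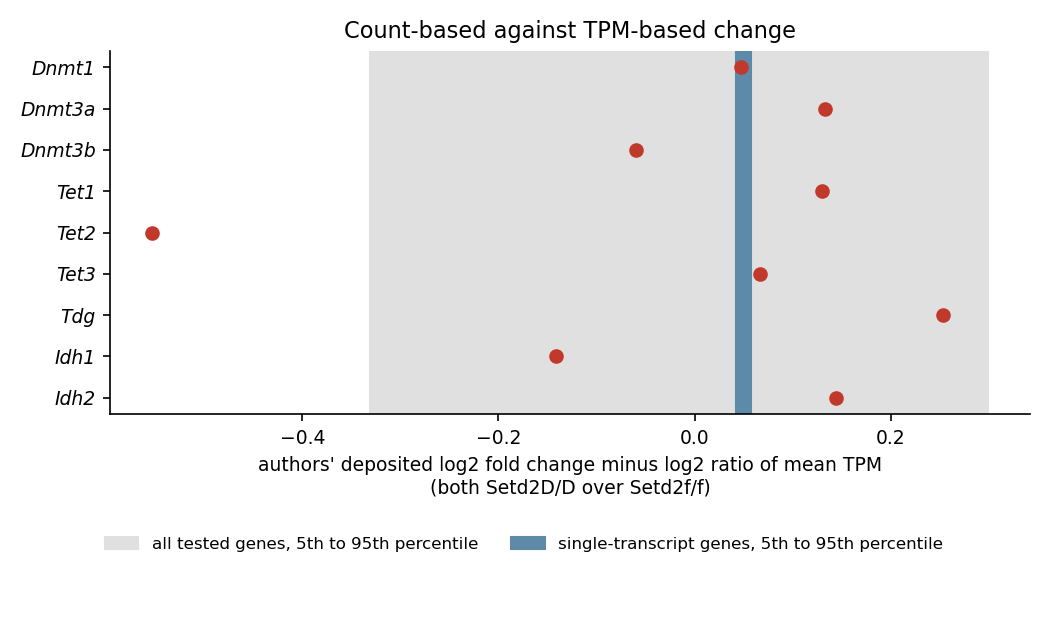
For each of the 9 genes (red points), the authors' deposited log2 fold change minus the log2 ratio of mean TPM, both Setd2D/D over Setd2f/f, with bands from the 5th to the 95th percentile of all tested genes in grey and of single-transcript genes in blue. Tet2 at -0.55 lies outside the grey band, which runs from -0.33 to 0.30, and the other 8 genes lie inside it.

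The 3 genes whose TPM profile over the 4 libraries lay nearest to that of Tet2, the gene with the widest range, were Spopl, Itga9 and Atg16l2, by the root mean square difference of centred log2(TPM + 1). That difference was 0.05, 0.05 and 0.06. The log2 ratio of implied transcript length, Setd2D/D over Setd2f/f, was -0.54, -1.37 and -0.44 in these genes, beside -0.60 for Tet2. The TPM values by which these genes were picked also enter that ratio, so it is no separate evidence of a shared shift in length. Over all 14607 genes, 4.80% differed by 0.5 or more in either direction. Spopl, for example, was at 36.1 and 16.1 TPM in Setd2D/D and at 20.5 and 12.9 TPM in Setd2f/f.

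Partner genes of the pathway were read in 6 lists of 63 genes, of which 62 were in the table and 58 passed the filter on low values. Of these 58, 0 passed limma over all genes and 7 had an unadjusted p under 0.05, a level reached by 11.2% of all tested genes. A change above 0 was seen in 21 of the 58 (36.2%) and one below 0 in 37, beside 42.1% above 0 over all tested genes. Their median log2 change was -0.06, as over all tested genes. In the authors' deposited table, 2 of 60 partner genes passed an FDR of 0.05, Cxxc5 and Mtrr, both lower. Of all 23955 genes there, 3.15% passed in either direction and 1.64% in the lower one.

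Cxxc5 encodes a zinc finger protein that binds unmethylated CG, with a domain related to the one in Tet1. It was at 53.3 and 57.9 TPM in Setd2D/D and at 86.6 and 85.6 TPM in Setd2f/f. Both Setd2D/D libraries lay well below both Setd2f/f libraries. Its limma log2 change was -0.62 (SE 0.12, adjusted p = 0.274), and the authors' deposited table gives -0.58 with an FDR of 0.00128. Of the 5 tested genes in the list of Tet partners, 3 had a change above 0 and 2 below. Slc23a2, a transporter of ascorbate, on which Tet activity depends, was at 15.2 and 18.1 TPM in Setd2D/D and at 23.1 and 20.9 TPM in Setd2f/f, with an FDR of 0.144 in the authors' deposited table.

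Mtrr, the reductase that keeps methionine synthase active in the cycle that supplies methyl groups, was at 5.41 and 5.64 TPM in Setd2D/D and at 11.5 and 11.1 TPM in Setd2f/f. The ratio of mean TPM was 0.490, the limma adjusted p was 0.358, and the authors' deposited table lists a log2 change of -0.98 (FDR 0.00816). Of the 12 genes of the methyl donor list, 4 had a change above 0 and 8 below, and Mtrr alone passed in the authors' deposited table. Ahcyl1, a relative of the enzyme that clears S-adenosylhomocysteine, was at 119 and 112.5 TPM in Setd2D/D and at 130.3 and 136 TPM in Setd2f/f.

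Of the 7 maintenance partners, 5 had a change below 0 and 2 above, with a median of -0.22 and 0 past either threshold. Uhrf2, a ring finger protein that binds hemimethylated DNA, was at 59.3 and 63.6 TPM in Setd2D/D and at 87.7 and 78.8 TPM in Setd2f/f (limma log2 change -0.43, adjusted p = 0.396, and -0.16 in the authors' deposited table). Pcna, the replication clamp that brings Dnmt1 to new DNA, was at 534 and 479 TPM in Setd2D/D and at 644 and 586 TPM in Setd2f/f. Of the 20 S phase genes read beside them, 8 had a change above 0 and 12 below, with a median log2 change of -0.04, with 0 past limma and 0 past an FDR of 0.05 in the authors' deposited table. Among these, Prim1 was at 89.1 and 88.3 TPM in Setd2D/D and at 109 and 102 TPM in Setd2f/f. Ccne2 was at 28.4 and 30.6 TPM in Setd2D/D and at 37.5 and 36.2 TPM in Setd2f/f, while the authors' deposited table gives it a log2 change of 0.16 (FDR 0.836).

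Of the 12 genes of 2-oxoglutarate supply and removal, 3 had a change above 0 and 9 below, and 0 passed. The subunits Idh3g and Idh3b of the NAD-dependent isocitrate dehydrogenase had the smallest p-values. Idh3g was at 157 and 181 TPM in Setd2D/D and at 223 and 226 TPM in Setd2f/f (limma adjusted p = 0.381), and Idh3b at 96.6 and 101.5 TPM in Setd2D/D and at 128 and 121.5 TPM in Setd2f/f (limma adjusted p = 0.411). In both, the Setd2D/D libraries lay below the Setd2f/f libraries, opposite in direction to Idh1. The subunit Idh3a went the other way, at 77.4 and 73.1 TPM in Setd2D/D and at 60.8 and 71.85 TPM in Setd2f/f. Its limma log2 change was 0.18 (adjusted p = 0.646). Of all tested genes, 44.3% had libraries of the genotypes that did not overlap.

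Of the 13 base repair genes, 5 had a change above 0 and 8 below, and 0 passed either threshold. Neil2, a glycosylase that acts after Tdg, was at 2.92 and 2.58 TPM in Setd2D/D and at 0.42 and 0.67 TPM in Setd2f/f, with a limma adjusted p of 0.397 and an FDR of 0.419 in the authors' deposited table. Gadd45a, linked to demethylation through Tdg, was at 17.1 and 15.5 TPM in Setd2D/D and at 11.8 and 12.8 TPM in Setd2f/f. Of the 9 tested genes in the list of MBD family and zinc finger proteins, not all of which bind methylated DNA, 4 had a change above 0 and 5 below, and 0 passed. Mbd3 was at 138 and 148 TPM in Setd2D/D and at 172.5 and 162 TPM in Setd2f/f, and Mbd5 at 35.2 and 23.8 TPM in Setd2D/D and at 21.9 and 19.2 TPM in Setd2f/f. For Mbd5 the authors' deposited log2 change was 0.07, against 0.48 by limma on TPM.

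**Figure D5:**
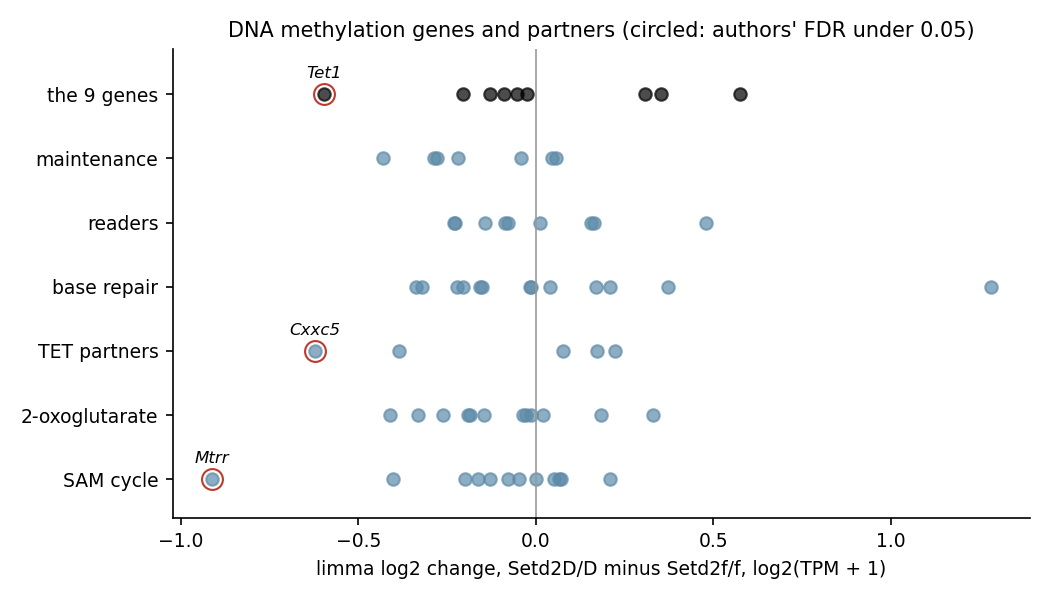
Limma log2 change on log2(TPM + 1), Setd2D/D minus Setd2f/f, on the horizontal axis for the 9 genes (black) and for the 58 tested partner genes by list (blue), with genes past an FDR of 0.05 in the authors' deposited table circled in red. Tet1 at -0.60, Cxxc5 at -0.62 and Mtrr at -0.91 are circled, and points lie on both sides of 0 in every row.

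Markers of LSK cells and of other cell types were read as sums beside these values. Among single tested genes, 44.3% had libraries of the genotypes that did not overlap in TPM. In bulk samples, fewer cells of a type and less RNA per cell cannot be told apart. The 13 erythroid markers summed to between 1008 and 1114 TPM in Setd2D/D and between 455 and 579 TPM in Setd2f/f. The 11 B cell markers summed to between 217 and 313.5 TPM in Setd2D/D and between 343 and 637 TPM in Setd2f/f. The 13 granulocyte and monocyte markers summed to between 3497 and 5125 TPM in Setd2D/D and between 2809 and 3335 TPM in Setd2f/f. The 9 T and NK cell markers summed to between 117 and 147 TPM in Setd2D/D and to 185 TPM in both Setd2f/f libraries. Cd3e was at most 0.57 TPM in any library, while Nkg7, the most abundant, was at 78.7 and 116 TPM in Setd2D/D and at 114 and 126 TPM in Setd2f/f. Without Nkg7 the other 8 summed to 38.75 and 31.2 TPM in Setd2D/D and to 71.0 and 59.4 TPM in Setd2f/f. Most of that was Lck, at 37.6 and 25.0 TPM in Setd2D/D and at 52.65 and 53.0 TPM in Setd2f/f. The 9 stromal and endothelial markers summed to between 95.3 and 101 TPM in Setd2D/D and between 120 and 150 TPM in Setd2f/f. Cdh5 was at most 0.56 TPM, while Pecam1, the most abundant, was at 84.6 and 70.7 TPM in Setd2D/D and at 81.2 and 73.1 TPM in Setd2f/f. Without Pecam1 the other 8 summed to 16.4 and 24.6 TPM in Setd2D/D and to 69.0 and 46.6 TPM in Setd2f/f. Nearly all of that came from Emcn and Pdgfrb, and none of the rest exceeded 0.59 TPM in any library. Emcn was at 5.68 and 11.7 TPM in Setd2D/D and at 42.85 and 24.3 TPM in Setd2f/f. Pdgfrb was at 10.4 and 10.7 TPM in Setd2D/D and at 25.05 and 20.9 TPM in Setd2f/f. The 7 mast cell and basophil markers summed to between 133 and 178 TPM in Setd2D/D and between 112 and 117 TPM in Setd2f/f. The 8 LSK markers summed to between 2899 and 2916 TPM in Setd2D/D and between 2833 and 2855 TPM in Setd2f/f, with Ly6e, the most abundant, at 1527 and 1629 TPM in Setd2D/D and at 1096 and 1240 TPM in Setd2f/f. Without Ly6e the other 7 summed to 1388 and 1270 TPM in Setd2D/D and to 1737 and 1615 TPM in Setd2f/f, lower in both Setd2D/D libraries. Cd34 was at 520 and 476 TPM in Setd2D/D and at 773 and 747 TPM in Setd2f/f. Without their most abundant gene, the granulocyte and monocyte sum (without Mpo) and the mast cell and basophil sum (without Cpa3) overlapped between genotypes. By an FDR of 0.05 in the authors' deposited table, which 3.15% of its genes passed, 10 erythroid markers were higher and 0 lower in Setd2D/D, and 0 B cell markers were higher and 7 lower. Of those 7, Pax5 and Igll1 overlapped between genotypes in TPM. For Pax5 the limma log2 change was 0.36, against -0.62 in the authors' deposited table. For granulocytes and monocytes the authors' deposited table has 6 higher and 1 lower, with 3 higher and 0 lower for mast cells and basophils, and 1 higher and 2 lower for LSK cells. The authors' deposited table has 0 higher and 2 lower for both the T and NK list and the stromal and endothelial list. None of the markers in these 7 lists was at 0 in all 4 libraries, and 0 passed limma (lowest adjusted p = 0.128). The part of cell composition in the values of Tet1, Idh1 and the other genes was not tested.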

How the data were processed

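RNA of 4 LSK libraries (2 Setd2D/D, 2 Setd2f/f) was purified on micro-scale columns and prepared by standard Illumina procedures, per the labels' protocols. The authors deposited TPM values per gene, and the submitters' processing notes name cutadapt, RSEM, edgeR and the mm10 build but not which step each served. TPM scales every library to the same total. The authors also deposited a comparison table with a fold change (a ratio), its log2 value and an average log2 CPM per gene, together with F (a score), p-value and FDR. In 5 and 2 rows of these tables a comma in a gene name had shifted the fields, and these were rejoined.

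The 14755 genes that reached a TPM of 1 in 2 or more libraries were transformed to log2(TPM + 1) and fitted with limma 3.58.1 in R 4.3.3 with 1 genotype term and a trend of the variance on abundance; p-values were 2-sided, adjusted by Benjamini and Hochberg over all genes and read at 0.05. Fold changes on this scale understate the change of low genes. Exact permutation tests used scipy 1.17.1.

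Implied transcript length is CPM per TPM, scaled by single-transcript genes of GENCODE M21 (GRCm38, which is mm10) that averaged 5 TPM or more and had 1000 or more bases. Depth was estimated from the lowest step of TPM times length in short single-transcript genes, so that read numbers are approximate and carry no assignment error. Sequences come from RefSeq (GRCm38.p6), where all 9 genes matched.

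The members and lists were chosen with earlier results of these data known. Named besides the 9 genes were Setd2, Kit and Ly6a, in each list other than the markers the 2 genes of smallest limma p among those averaging 1 TPM or more, partner genes past an FDR of 0.05 in the authors' table, and the 3 nearest profiles. Idh3a and the markers Cd3e, Nkg7, Lck, Cdh5, Pecam1, Emcn, Pdgfrb, Ly6e, Cd34, Pax5 and Igll1 were named after their values were seen. The marker sums without the most abundant gene of a list were likewise added after seeing the data. A further marker list is not reported here. Alternatives were other pseudocounts, filters, scalings and moderation, a fit with the replicate number as a block, and leaving out each library in turn. Replicate numbers did not show that samples were paired.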

Additional observations from a re-analysis of the deposited data

How the results depend on the processing

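None of the 9 genes passed limma under any of the 14 alternatives, with a lowest adjusted p of 0.248. Over all genes, 10 passed as reported, 3 with a pseudocount of 0.1, 19 without the abundance trend and 0 with no filter. With the replicate block 0 genes passed, and unadjusted p was under 0.05 for 1508 with the block and 2035 with no filter. The blocked fit left 0 of the 9 genes past the threshold, and deviations of same-numbered libraries had an r of 0.04 across genes. That r did not show pairing, but with 2 libraries per genotype it cannot exclude a shared batch. With any 1 library left out 0 genes passed, while between 554 and 2928 had an unadjusted p under 0.05, against 1647 as reported.

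Signs held under every alternative for Dnmt1, Dnmt3b, Tet1, Tet2, Tet3 and Idh1. For Dnmt1, Tet1, Tet3 and Idh1, whose genotypes did not overlap, leaving out a library could not turn the sign. Filters, moderation, the abundance trend and the replicate block leave the log2 change of a gene as it was, so they cannot test its sign. Tet1 stayed between -0.69 and -0.50 and Idh1 between 0.29 and 0.43, while Tet2 ranged from 0.07 to 1.08. The log2 change of Dnmt3a became 0.0020, 0.024 and 0.034 after trimmed-mean, median-of-ratios and quantile scaling, and lay between -0.14 and 0.0875 without 1 library. That of Idh2 lay between -0.23 and 0.0559 and that of Tdg between -0.16 and 0.0553 without 1 library. Log2 ratios of the summed families, near 0 as reported (-0.019 for Dnmt, -0.026 for Tet, -0.035 for Idh), turned positive under every scaling for Dnmt and Tet, while that for Idh stayed at -0.013 under trimmed-mean scaling. They were 0.0054, 0.029 and 0.037 for Dnmt and 0.00025, 0.024 and 0.059 for Tet in the same order, and 0.012 and 0.0084 for Idh under median-of-ratios and quantile scaling. Without 1 library they lay between -0.11 and 0.0803 for Dnmt, -0.24 and 0.16 for Tet, and -0.16 and 0.079 for Idh. The cause of these turns was not tested. The median log2 change of all tested genes was -0.063 as reported. It was -0.038, -0.018 and -0.017 under trimmed-mean, median-of-ratios and quantile scaling. Having 2 libraries a group limits every interval given.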

Other observations

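Germline genes, many of which are silenced by promoter methylation in somatic cells, were read as a list of 12. In all 4 libraries 6 of them (Asz1, Hormad1, Mael, Slc25a31, Sycp3 and Taf7l) were listed at 0, and 3 reached a TPM of 1 in any library. Ddx4, an RNA helicase of germ cells, was at 17.3 and 11.5 TPM in Setd2D/D and at 16.6 and 10.4 TPM in Setd2f/f. Brdt, a testis bromodomain gene, was at 0.83 and 2.30 TPM in Setd2D/D and at 1.33 and 1.83 TPM in Setd2f/f. Neither passed limma (adjusted p = 0.947 for Ddx4 and 0.975 for Brdt). Sycp1, which encodes a protein of the synaptonemal complex of meiosis, was at 4.10 and 0.30 TPM in Setd2D/D with each Setd2f/f library listed at 0. It did not reach the filter for limma, and the authors' deposited table gives it an FDR of 0.00675. Most of its signal came from Setd2D/D replicate 1.

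The parting of count-based and TPM-based changes seen in Tet2 was counted over all genes. The implied transcript length differed by 0.5 or more on the log2 scale in 4.80% of 14607 genes, with 456 shorter and 245 longer in Setd2D/D. Among protein-coding genes with 2 or more annotated transcripts it did so in 5.73% of 11038, and among single-transcript genes in 0.178% of 563. Of the 58 partner genes, Ahcyl2 alone did, and it was longer. Ahcyl2 was at 8.44 and 8.38 TPM in Setd2D/D and at 15.7 and 8.27 TPM in Setd2f/f, a log2 ratio of mean TPM of -0.51, where the authors' deposited table gives 0.16.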
